A study of Mus musculus with 22 samples.

Results

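The miRNA repertoire of wild-type (WT) mouse round spermatids (RS) was described in 11 of the 22 small RNA libraries of the series, chosen by their genotype label. RS are the haploid germ cells that follow meiosis and precede the elongation of the sperm head. The libraries fell into 2 experimental batches, called batch 1 (5 WT libraries, titles ending in a) and batch 2 (6 WT libraries, titles ending in b). Batch 1 also held 5 libraries of GRTH knock-out mice and batch 2 held 6 libraries of GRTH knock-in mice, GRTH (DDX25) being a testis-specific RNA helicase. The numbers follow the title letters and run opposite to the published methods, which call the knock-in batch the first and the knock-out batch the second. All mice were 75 to 85 days old, no agent was given, and the strain was not given in the sources used here. RS were settled through an albumin gradient after collagenase and trypsin digestion of the testes and judged by nuclear staining. The published methods state a high minimum purity for the RS of these libraries, so that some other testis cells could remain. The sources used here did not say how many animals gave a library, and the tests below measure only the spread between libraries.

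A miRNA is cut from a hairpin transcript, and either arm of the hairpin (5p or 3p) can be loaded into the silencing complex. Bases 2 to 8 of the mature strand, the seed, select the target mRNAs, so that miRNAs with 1 seed form a family. Hairpins that lie close together on a chromosome are often cut from 1 primary transcript (a cluster), and many lie in an intron or exon of a host gene. In male germ cells the miR-34b/c and miR-449 hairpins, which share a seed, are known to be abundant from meiosis on, and a large X-linked cluster is known for its testis expression.

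The mature sequences that the results turn on are shown first, from RefSeq (GRCm38.p6), 5′ to 3′ with the seed in capitals. The miR-15/16 family is shown because it led the repertoire while its members moved in different directions between batches:
miR-16-5p: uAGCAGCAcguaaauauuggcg
miR-15a-5p: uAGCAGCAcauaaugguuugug
miR-15b-5p: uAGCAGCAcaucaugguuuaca
miR-195a-5p: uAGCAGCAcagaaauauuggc
miR-322-5p: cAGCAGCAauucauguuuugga

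The miR-34/449 strands are shown because the 5p and 3p strands of the miR-34b hairpin, which have different seeds, went opposite ways:
miR-34a-5p: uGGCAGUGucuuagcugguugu
miR-34b-5p: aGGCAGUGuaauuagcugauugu
miR-449a-5p: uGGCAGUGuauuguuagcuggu
miR-34b-3p: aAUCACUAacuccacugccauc
miR-34c-3p: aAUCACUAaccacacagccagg

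The miR-29 and miR-30 families are shown because members with the same seed were called in different directions:
miR-29a-3p: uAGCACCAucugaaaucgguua
miR-29b-3p: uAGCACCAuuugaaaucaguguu
miR-29c-3p: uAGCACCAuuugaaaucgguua
miR-30a-5p: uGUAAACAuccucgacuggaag
miR-30c-5p: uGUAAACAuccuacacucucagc
miR-30e-5p: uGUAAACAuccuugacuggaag

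The remaining strands are the shared X-linked sequence of miR-465a-3p, miR-465b-3p and miR-465c-3p, the largest fall among the miRNAs that averaged 10 CPM (counts scaled to a common library total) or more and did not overlap, and an abundant miRNA that rose:
miR-465a-3p: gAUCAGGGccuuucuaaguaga
miR-345-5p: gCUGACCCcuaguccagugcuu
miR-21a-5p: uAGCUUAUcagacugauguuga

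The libraries held 870913 to 1081333 counts in batch 1 and 2067322 to 3239357 in batch 2, so depth and batch cannot be told apart. Of 1966 mature miRNA names, 1008 had a count in any WT library and 446 had one in all 11. The repertoire was steep: 3 names made up at least 50% of the counts in each batch 1 library and 2 names did so in each batch 2 library, while 90% of the counts took 49 to 53 names in batch 1 and 42 to 45 in batch 2. More names were detected in batch 2 (655 to 725) than in batch 1 (600 to 666, adjusted p = 0.0108, exact permutation test, two-sided, n = 5 and 6). At a common depth of 870913 counts the order turned, with 612 ± 17.8 names expected in batch 1 and 569 ± 10.1 in batch 2 (SD, exact permutation p = 0.00216, the smallest p that these groups allow).

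How reads that match several genomic copies were counted was not given in the sources used here, and names with several copies may hold a read more than once. The ratio of miR-465b-3p to miR-465a-3p counts lay between 1.9998 and 2.0002 in every library. Of 48 names with several copies and at least 500 counts, 16 had counts divisible by the number of copies in all 11 libraries and 25 in at least 9, while miR-16-5p had so in 3 and miR-103-3p in 1. Shares below are percentages of a library's counts. Levels are CPM after TMM scaling, and differences between batches are log2 differences of these levels with their standard error (SE), batch 2 minus batch 1, from edgeR's quasi-likelihood test with Benjamini-Hochberg adjusted p under 0.1.

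miR-16-5p, of the miR-15/16 family known for restraining the cell cycle, and miR-34c-5p led the repertoire in every WT library. miR-16-5p took 31.3, 32.3, 31.1, 32.4 and 31.9% of the counts in batch 1 and 29.0 to 31.3% in batch 2, so that the shares of the batches overlapped. It has 2 copies, in an intron of Dleu2 (chr14:61631936-61631957) and in an intron of Smc4 (chr3:69009918-69009939), and if counts are divided by copies, which the divisibility of its counts does not settle, miR-34c-5p came first. miR-34c-5p, from an intergenic hairpin at chr9:51103076-51103098, took 17.8, 17.6, 17.1, 15.5 and 17.3% in batch 1 and 24.9 to 25.97% in batch 2, with no overlap. Its log2 difference was 0.91 ± 0.07 (SE, adjusted p = 5.83e-08), and 0.58 when scaled by library size alone.

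The batches shared 17 of their leading 20 names and 45 of their leading 50. The 3 that were in the leading 20 of batch 1 only were miR-30c-5p, miR-34b-3p and miR-465a-3p, and those of batch 2 only were miR-125b-5p, miR-30e-5p and miR-7a-5p. After miR-16-5p and miR-34c-5p the next places were taken by miR-34b-5p, let-7a-5p, miR-449a-5p, miR-19b-3p, miR-191-5p, miR-465b-3p, miR-465c-3p and miR-741-3p, each with a mean share over 1%. These 10 names together held 68.0 ± 0.782% of the counts in batch 1 and 72.4 ± 0.463% in batch 2 (SD, adjusted p = 0.00260, exact permutation test over n = 5 and 6 libraries). Without miR-16-5p and miR-34c-5p in the totals, the same measure differed by 0.286 percentage points (adjusted p = 0.554, exact permutation test).

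**Figure D1:**
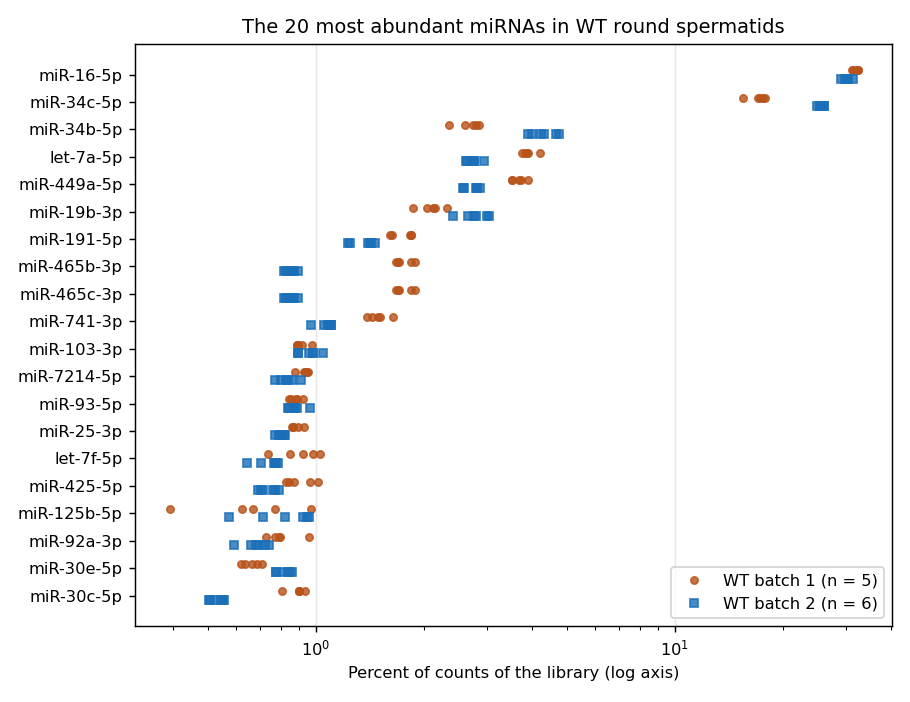
Percent of counts (log axis) of the 20 miRNAs with the largest mean share in WT RS, with 1 point for each library, circles for batch 1 (n = 5) and squares for batch 2 (n = 6). miR-16-5p and miR-34c-5p lie far to the right of all others, and the batches are apart for miR-34c-5p, miR-34b-5p, let-7a-5p and the miR-465 names.

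Between batches, 217 of the 383 miRNAs tested were called, which is 56.7% of those tested. Of these, 103 (26.9% of those tested) were higher in batch 2 and 114 (29.8%) were lower, and for 140 (36.6%) the libraries of the batches did not overlap. The median size of a called difference was 0.65 on the log2 scale, and 57 calls were over 1. Scaled by library size alone, 240 miRNAs were called (47 up and 193 down), and the median over all tested miRNAs was -0.34, where TMM gave -0.01. Only 161 of the 217 calls were shared under that scaling. The sign of 17 of the 217 turned, all of them called higher with TMM by at most 0.33. The ranks held more closely than the levels, with Spearman's rho over miRNAs of 0.930 to 0.964 between libraries of different batches and 0.977 to 0.991 within a batch, where genes are not independent replicates.

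Of the 20 leading miRNAs, 10 were called higher, 5 lower and 5 were not called with TMM, and by library size alone 4 were called higher and 13 lower, beside 47 and 193 of all tested. miR-34b-5p (chr9:51103610-51103632) stood at 25217, 26039, 25096, 18412 and 23679 CPM in batch 1, and at 42112, 48523 and 52819 CPM in batch 2 (lowest, median and highest). All batch 2 libraries were above all batch 1 libraries, with a log2 difference of 1.02 ± 0.09 (adjusted p = 1.60e-07). miR-19b-3p, with copies in Mir17hg and on chromosome X, rose by 0.73 ± 0.09 (adjusted p = 6.73e-06), from 14616 to 21097 CPM in batch 1 to 26884 to 33844 CPM in batch 2.

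miR-103-3p, of introns of Pank2 and Pank3, rose by 0.41, miR-93-5p by 0.33, miR-30e-5p by 0.63 and miR-125b-5p by 0.61 on the log2 scale, while by library size alone miR-103-3p, miR-93-5p and miR-125b-5p stood at 0.07, 0.0021 and 0.26 and did not pass, and miR-19b-3p and miR-30e-5p stood at 0.40 and 0.30 and passed. miR-125b-5p overlapped between batches (0.392 to 0.967% of counts in batch 1, 0.573 to 0.959% in batch 2), and the others did not overlap in CPM. miR-16-5p (0.25), miR-7214-5p (0.17) and miR-25-3p (0.19) were called higher with TMM, but by library size alone their log2 differences were -0.08, -0.15 and -0.14. let-7a-5p (-0.18), miR-465b-3p and miR-465c-3p (both -0.72), miR-741-3p (-0.15) and miR-30c-5p (-0.41) were called lower. miR-449a-5p, miR-191-5p, let-7f-5p, miR-425-5p and miR-92a-3p did not pass with TMM, with log2 differences of -0.10, -0.03, 0.05, 0.03 and 0.08, but all of them were called lower by library size alone, at -0.42, -0.36, -0.29, -0.29 and -0.25.

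**Figure D2:**
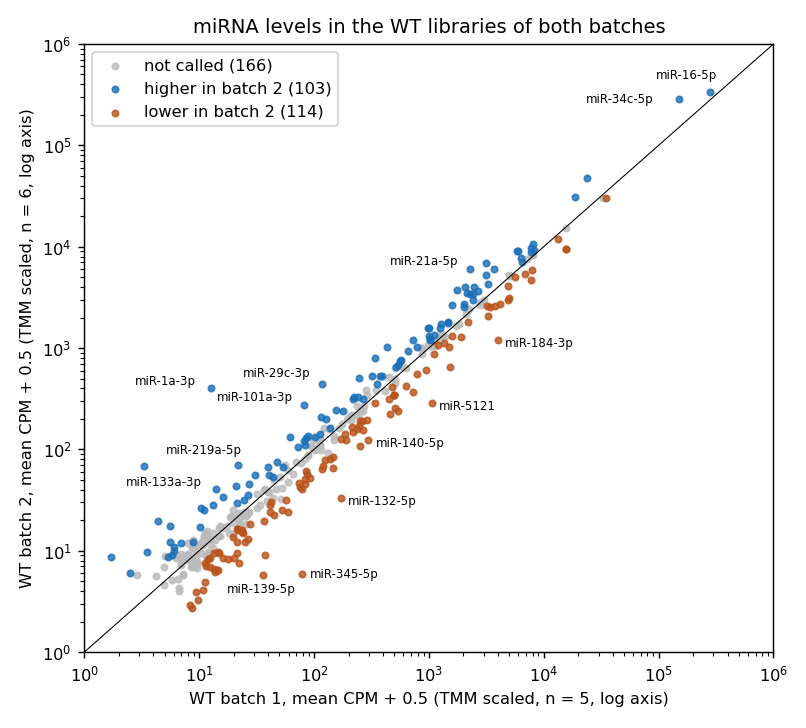
Mean TMM-scaled CPM plus 0.5 of the 383 miRNAs tested, batch 1 (n = 5) across and batch 2 (n = 6) up, both on log axes, coloured by call. The 103 miRNAs called higher lie above the line of equal levels and the 114 called lower lie below it at all levels, and miR-1a-3p and miR-133a-3p are the farthest above it.

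The largest falls among miRNAs that averaged 10 CPM or more and did not overlap were found in scarce miRNAs. miR-345-5p, in an intron of Slc25a47 (chr12:108836989-108837010), stood at 71.0, 92.0, 93.3, 63.7 and 73.4 CPM in batch 1 and at 3.38, 4.76 and 7.92 CPM in batch 2 (lowest, median and highest). The highest batch 2 library was thus far below the lowest batch 1 library, a 14.7-fold fall (log2 -3.88 ± 0.21, adjusted p = 3.75e-09) resting on 433 and 73 counts. miR-139-5p fell by 2.72, miR-132-5p by 2.39, miR-3618-5p by 2.09 and miR-28a-5p by 1.60 on the log2 scale, and miR-466h-5p, miR-467b-5p and miR-140-5p, the last known from cartilage, fell by 1.30, 1.28 and 1.26.

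Abundant miRNAs among the falls were miR-184-3p and miR-5121. miR-184-3p (chr9:89802263-89802284), a conserved intergenic miRNA, held 3535 to 4644 CPM in batch 1 and spread from 378 through a median of 1052 to 2198 CPM in batch 2, a log2 difference of -1.73 ± 0.41 (adjusted p = 0.00205). Batch 2 libraries thus differed from each other by more than batch 1 libraries did. miR-5121, in an intron of Gm45713, held 675 to 1433 CPM in batch 1 and 194 to 422 CPM in batch 2 (-1.89 ± 0.22, adjusted p = 6.30e-06).

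Among the rises, miR-1a-3p, a miRNA of heart and skeletal muscle, went from 6.09, 13.9, 7.46, 10.1 and 23.3 CPM in batch 1 to 36.2, 492 and 608 CPM in batch 2 (lowest, median and highest). Batch 2 replicate 2 held the 36.2 CPM and stood near batch 1, while the other 5 libraries of batch 2 stood far above it. The fitted log2 difference was 5.03 ± 0.63 (adjusted p = 9.02e-06). The muscle list of miR-1a-3p, miR-133a-3p, miR-133b-3p, miR-206-3p and miR-499-5p summed to 13.1 to 37.6 CPM in batch 1 and 48.6 to 710 CPM in batch 2, with miR-133b-3p and miR-206-3p, which skeletal muscle expresses, at 0 in every library. miR-133a-3p went from a mean of 2.83 CPM in batch 1 to 67.5 CPM in batch 2 (log2 4.53, called higher), with 3.39 CPM in batch 2 replicate 2. miR-499-5p, with means of 7.37 and 7.58 CPM, was not called. Whether muscle RNA had a part in the differences of this list was not tested.

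miR-21a-5p, from an exon of Vmp1 (chr11:86584120-86584141) and known from growth and injury responses, was the most abundant of the leading rises. It stood at 2372, 2520, 2370, 1801 and 2243 CPM in batch 1 and at 5702, 5988 and 6427 CPM in batch 2, with the batches far apart (log2 1.41 ± 0.08, adjusted p = 7.23e-09). The further rises were miR-3084-5p (2.21), miR-29c-3p (1.92), miR-101a-3p (1.75), miR-219a-5p (1.70), miR-3068-3p (1.55), miR-210-3p (1.38), known from the hypoxia response, miR-463-3p (1.24) and miR-16-1-3p (1.24). miR-101b-3p, which shares its family name with miR-101a-3p and lies in an intron of Rcl1, rose by 1.23 from 289 to 373 CPM in batch 1 to 712 to 843 CPM in batch 2.

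The 15 leading seed families were compared by their share of counts, and 12 differed between batches at an adjusted p under 0.05 (exact permutation test over 5 and 6 libraries, adjusted over the 15). The miR-15/16 family took 33.0 ± 0.575% in batch 1 and 31.0 ± 0.735% in batch 2 (SD, adjusted p = 0.00649, exact permutation test). The miR-34/449 family without miR-34c-5p took 6.72 ± 0.304% and 7.55 ± 0.481% (adjusted p = 0.0118, exact permutation test), and with miR-34c-5p put in by its name 23.8 ± 1.17% and 33.1 ± 0.792%. The let-7 family, known to accumulate as cells differentiate, took 6.34 ± 0.525% and 4.52 ± 0.111%, with no overlap (adjusted p = 0.00464, exact permutation test).

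Shares fell without overlap in the miR-465-3p family (4.40 to 2.13%), whose names share 1 sequence, in miR-191-5p (1.75 to 1.36%), miR-741-3p (1.49 to 1.07%), miR-425-5p (0.904 to 0.737%) and the seed of miR-34b-3p and miR-34c-3p (1.14 to 0.669%). The miR-19 family rose without overlap from 2.33 ± 0.178% to 3.14 ± 0.266%. For the miR-30 (1.83 to 1.70%), miR-25/92 (1.70 to 1.49%) and miR-17/93 (1.45 to 1.36%) families the shares were lower in batch 2, but higher by 0.268, 0.0415 and 0.227 percentage points when miR-16-5p and miR-34c-5p were left out of the totals. These miR-30 values did not include miR-30b-5p and miR-30d-5p, for which no RefSeq sequence was found. With both put in by name, the miR-30 share was 2.28% in batch 1 and 2.06% in batch 2. The 3 families that did not differ were miR-103/107 (0.922 to 0.968%, adjusted p = 0.190), miR-29 (0.914 to 0.933%, adjusted p = 0.556) and miR-125/351 (0.787 to 0.917%, adjusted p = 0.346, all by exact permutation test).

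The stable share of the miR-29 family covered members that went different ways. miR-29a-3p (chr6:31062673-31062694) stood at 3237, 3015, 3220, 2537 and 3550 CPM in batch 1 and at 6632, 6824 and 7483 CPM in batch 2, a log2 rise of 1.16 ± 0.08 (adjusted p = 3.2e-08). miR-29b-3p, which has copies beside miR-29a on chromosome 6 and beside miR-29c on chromosome 1, stood at 4923, 4882, 5462, 4450 and 4542 CPM and at 2538, 2949 and 3277 CPM, a fall of 0.72 on the log2 scale. miR-29a-3p was the scarcer of the pair in every batch 1 library and the more abundant in every batch 2 library, with 0.570 to 0.782 counts of miR-29a-3p for each count of miR-29b-3p in batch 1 and 2.15 to 2.64 in batch 2. miR-29c-3p, the scarcest member, rose from 76.2 to 149 CPM to 338 to 524 CPM. The 3 strands have 1 seed, as the sequences above show.

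Of 33 seed families with at least 2 members tested, 7 had members called in both directions, 24 had calls in 1 direction only and 2 had none. In the miR-15/16 family miR-16-5p, miR-15a-5p (log2 0.65) and miR-322-5p (0.71) were called higher, while miR-15b-5p (-0.26) and miR-195a-5p (-0.28) were called lower, and miR-497a-5p (0.00) was not called. The ratio of miR-16-5p to miR-15b-5p counts, which needs no scaling between libraries, was 55.04 to 59.5 in batch 1 and 75.6 to 86.5 in batch 2. Each of the miR-16 copies has a neighbour of its own family, miR-15a-5p in the same Dleu2 intron (chr14:61632075-61632096) and miR-15b-5p in the same Smc4 intron (chr3:69009775-69009796).

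In the miR-30 family miR-30e-5p (log2 0.63) and miR-30a-5p (0.67) rose and miR-30c-5p (-0.41) fell. The ratio of miR-30e-5p to miR-30c-5p counts went from 0.691 to 0.826 in batch 1 to 1.48 to 1.62 in batch 2. miR-30e-5p and 1 of the 2 copies of miR-30c-5p lie in the same gene, Nfyc (chr4:120769546-120772681), which encodes a subunit of the NF-Y transcription factor. miR-30b-5p and miR-30d-5p, from a further cluster, had log2 differences of -0.16 (called lower) and 0.03 (not called).

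The miR-17/93 family held miR-93-5p (log2 0.33) and miR-20b-5p (0.73) above and miR-17-5p (-0.80) and miR-106b-5p (-1.37) below, while miR-20a-5p (0.09) did not pass. With scaling by library size alone 0 of the 5 were called higher and 3 lower, beside 47 and 193 of all 383 tested. miR-106b-5p and miR-20b-5p were scarce, with 49 and 31 counts in batch 1. In the same way miR-148b-3p rose against miR-148a-3p, with ratios of 0.647 to 0.677 in batch 1 and 0.933 to 1.12 in batch 2. miR-181c-5p rose against miR-181d-5p (1.38 to 2.4 in batch 1, 3.39 to 5.54 in batch 2) and miR-708-5p against miR-28a-5p (0.174 to 0.409 and 0.923 to 2.56). These pairs were chosen after their calls were seen, and their ratios are given without a test.

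**Figure D3:**
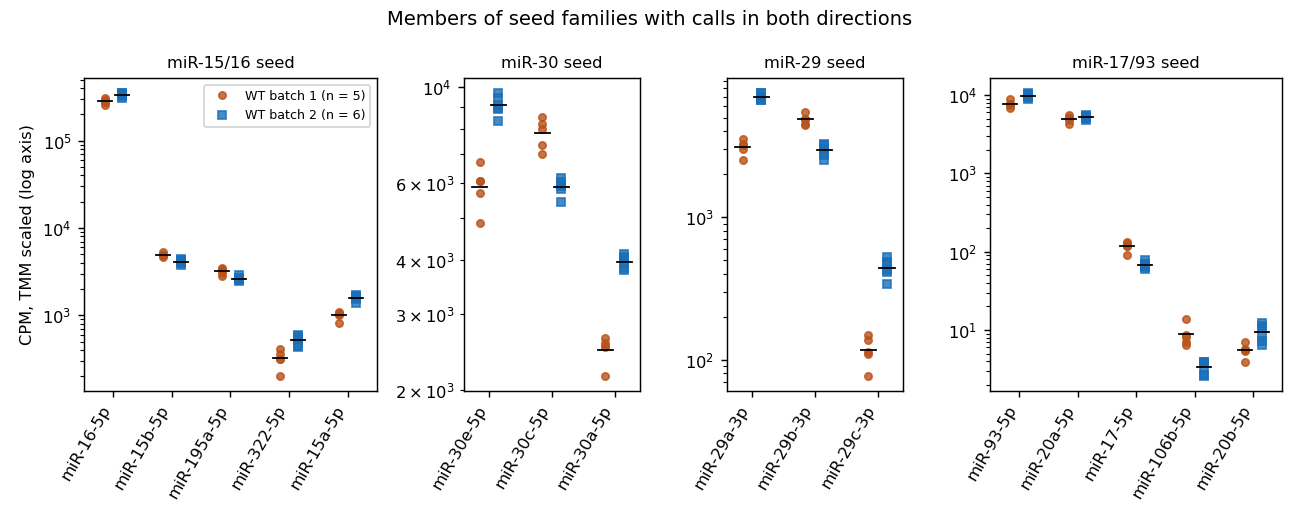
TMM-scaled CPM (log axis) of the members of 4 seed families in each WT library, circles for batch 1 (n = 5), squares for batch 2 (n = 6) and bars for the means. miR-29a-3p and miR-29b-3p exchange their order between batches, as do miR-30e-5p and miR-30c-5p, while miR-16-5p stays far above its family.

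Hairpins on 1 strand with gaps of at most 10 kb were joined into clusters. The shares of 12 of the 15 leading clusters differed between batches (adjusted p under 0.05, exact permutation test). A name with a copy outside a cluster was left out of that cluster's share. Left out were miR-19b-3p and miR-92a-3p (Mir17hg), miR-29b-3p (miR-29a cluster), miR-16-5p (Smc4), miR-30c-5p (Nfyc) and miR-297a-5p (Sfmbt2). The miR-34b/c cluster (chr9:51103044-51103632) held 21.8, 21.7, 20.9, 18.9 and 21.1% of the counts in batch 1 and 29.6 to 31.2% in batch 2, with no overlap. Its 5p strands rose and its 3p strands fell, miR-34b-3p by 0.35 and miR-34c-3p by 0.66 on the log2 scale. The miR-449 cluster in Cdc20b (chr13:113036008-113037610), whose leading strand has the same seed as miR-34b-5p, fell in share from 3.70 ± 0.154% to 2.76 ± 0.124%. Of its 3 tested members 0 were called with TMM and 1 was called lower by library size alone, beside 193 lower of all 383 tested at that scaling.

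The X-linked cluster at chrX:66776760-66839121 held 17 hairpins and 34 names, all with counts, and took 8.81 ± 0.423% of the counts in batch 1 and 5.66 ± 0.177% in batch 2. Of its 31 tested members 7 were called higher and 17 lower, beside 26.9% and 29.8% of all tested miRNAs. With scaling by library size alone 5 were higher and 22 lower, beside 47 and 193 of all 383 tested. The falls included miR-465a-3p, miR-465b-3p and miR-465c-3p (log2 -0.72), miR-880-3p (-0.40), miR-465b-5p (-0.58) and miR-871-5p (-0.99). The rises included miR-883a-3p (0.72), miR-871-3p (0.76) and miR-463-3p (1.24), and miR-743a-3p (-0.04) was not called. miR-463-3p stood at 412, 378, 471, 354 and 546 CPM in batch 1 and at 833, 1063 and 1119 CPM in batch 2, with no overlap, while miR-463-5p from the other arm stood at 997 to 1275 and 988 to 1090 CPM. Nearly all counts on chromosome X came from this cluster, and the chromosome's share went from 8.96 ± 0.443% to 5.81 ± 0.188% (adjusted p = 0.00260, exact permutation test).

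The cluster in Sfmbt2, a gene known for its imprinted expression, held 38 hairpins of the rodent miR-297, miR-466, miR-467 and miR-669 groups (chr2:10466677-10518240). Its share fell from 2.26 ± 0.0928% to 1.45 ± 0.0682%, and 27 of its 46 tested members were called lower and 2 higher (median log2 -0.54), beside 29.8% and 26.9% of all tested miRNAs. By library size alone 40 were called lower and 0 higher (median -0.87), beside 193 lower and 47 higher of all 383 tested (median -0.34). The 27 tested 5p strands gave 19 calls, all lower (median -0.79), and the 19 tested 3p strands gave 8 lower and 2 higher calls (median -0.28). miR-669a-5p fell by 1.23, miR-467a-5p by 1.16 and miR-466b-3p by 0.55 on the log2 scale. miR-669a-3p, the leading member, was called higher at 0.13 with TMM and lower at -0.20 by library size alone. Many of these strands are near-identical and their reads can be shared, so the members were not independent of each other.

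The Mcm7 cluster of miR-93, miR-25 and miR-106b (chr5:138165332-138165807) held 1.79 ± 0.0622% and 1.70 ± 0.0576% (adjusted p = 0.0460, exact permutation test, lost when any of 9 of the 11 libraries was left out). The names found only in the Mir17hg cluster, among them strands of miR-17, miR-18a, miR-19a and miR-20a, did not differ in share (0.906 and 0.896%, adjusted p = 0.725, exact permutation test). Left out of this share were miR-19b-3p (2.10 to 2.77% of counts) and miR-92a-3p (0.808 to 0.682%), which also have copies on chromosome X. Within Mir17hg, miR-19a-3p rose by 0.97 and miR-17-3p by 0.64 on the log2 scale, while miR-18a-5p fell by 0.98 and miR-17-5p by 0.80. The clusters of miR-7217 and miR-7218 in Gm49794 (0.763 and 0.856%) and of miR-7241 and miR-7242 on chromosome 9 (0.411 and 0.360%) did not differ either (adjusted p = 0.0974 and 0.264, exact permutation test).

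Of the others, the shares of miR-191/425 (2.66 to 2.10%), miR-15b with miR-16-2-3p in Smc4 (0.560 to 0.372%), miR-30b/30d (0.459 to 0.358%) and miR-195a with miR-497a (0.461 to 0.317%) fell. Those of miR-468 and miR-7232 (0.780 to 0.939%), miR-30e in Nfyc without miR-30c-5p (0.702 to 0.844%) and miR-29a without miR-29b-3p (0.354 to 0.629%) rose. The direction of a share and of the scaled levels need not match: the miR-191/425 members had a median log2 difference of 0.00, and of the 4 strands miR-191-3p was called lower (-0.67). With scaling by library size alone 3 of the 4 were called lower (median -0.33), beside 193 of all 383 tested (median -0.34).

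**Figure D4:**
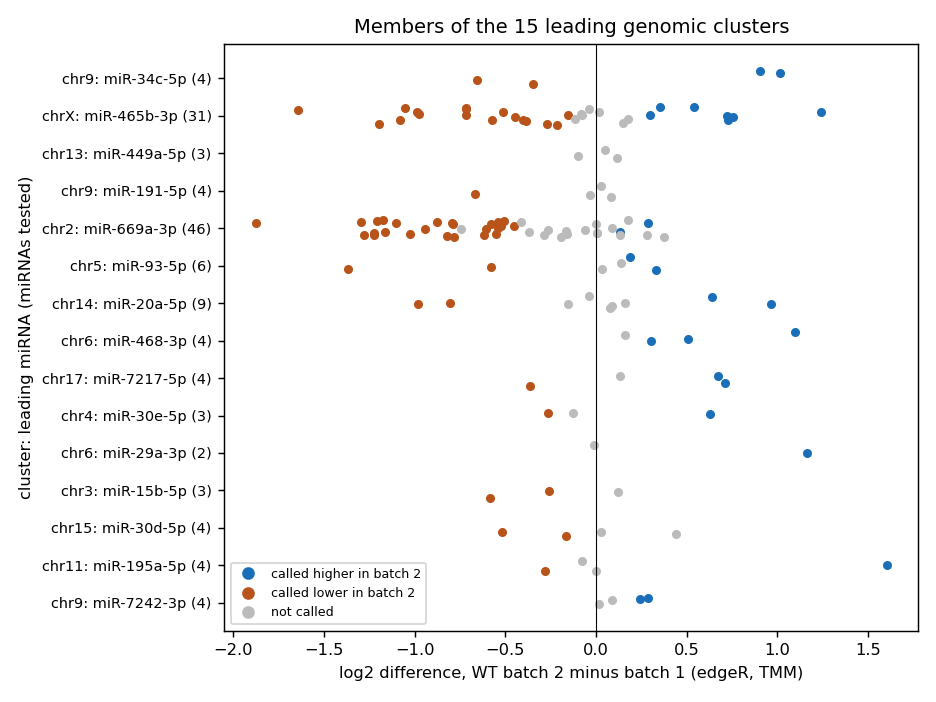
Log2 difference between WT batches (batch 2 minus batch 1, edgeR with TMM) of each tested member of the 15 leading clusters, named by chromosome and leading miRNA. Members of the Sfmbt2 cluster on chromosome 2 lie mostly below 0, members of the X-linked cluster lie on both sides, and the 4 strands of the miR-34b/c cluster split into 2 above and 2 below 0.

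By annotation (GENCODE vM21), names in introns of hosts took 45.3 ± 0.576% of the counts in batch 1 and 41.0 ± 0.721% in batch 2 (adjusted p = 0.00260, exact permutation test), most of it miR-16-5p. Calls were found in all places: of 172 intronic names tested 40 were higher and 57 lower, of 63 in exons 18 and 17, and of 125 between genes 40 and 33, beside 26.9% higher and 29.8% lower over all places. After Dleu2 and Smc4 the leading hosts were Cdc20b, Sfmbt2, Gm49793 (miR-7214, 1.07 to 0.975%), Pank2 and Pank3 (0.911 to 0.959%) and Nfyc. The share of let-7g in Wdr82 fell from 0.560 ± 0.0339% to 0.284 ± 0.00876% and that of miR-142a in Mir142hg, known from blood cells, from 0.506 ± 0.0468% to 0.283 ± 0.024%. The hosts of miR-148b (Copz1), miR-340 (Rnf130) and miR-128 (Arpp21 and R3hdm1) held 0.165 and 0.160%, 0.146 and 0.157%, and 0.0579 and 0.0583%.

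Arm use was measured in 166 hairpins with counts on both arms. The 5p arm held most counts in 88 of them and the 3p arm in 78, with over 90% on the 5p arm in 52 and over 90% on the 3p arm in 36. Of all counts of names with an arm label, 78.7 ± 0.283% lay on 5p arms in batch 1 and 82.5 ± 0.246% in batch 2 (adjusted p = 0.00260, exact permutation test). This rise of 3.83 points stood beside a rise of 8.47 points in the share of miR-34c-5p alone, and is not a count of hairpins. The percent on the 5p arm was ranked almost alike in the batches (Spearman's rho = 0.972 across hairpins, a description), and the dominant arm differed in 7 hairpins.

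The ratio of the arms within a hairpin, tested in edgeR with an arm by batch term, was called in 80 hairpins (48.2% of those tested), with relatively more 5p in batch 2 in 28 (16.9%) and more 3p in 52 (31.3%). Since both arms come from the same library, this ratio needs no scaling between libraries. Of 104 hairpins with both arms in the test of levels, 8 had both arms called higher, 12 both lower, 21 opposite calls, 49 a call of 1 arm only and 14 no call. These counts stood beside 26.9% of all 383 tested names called higher and 29.8% called lower. They were not compared with pairs of unrelated names. Hairpins with opposite calls included miR-34b, miR-34c, miR-30e, miR-9, miR-140, miR-17, miR-142a and miR-669a, the last with 12 copies of its 5p strand and 11 of its 3p strand.

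The miR-34c hairpin gave 98.0, 97.6, 98.2, 97.9 and 97.9% of its counts from the 5p arm in batch 1 and 99.1 to 99.4% in batch 2, with no overlap (log2 arm ratio 1.56 ± 0.10, adjusted p = 1.1e-11). The miR-34b hairpin, with a larger 3p part, went from 77.6% to 89.9%. In the miR-140 hairpin the 5p part fell from 31.0% to 11.6% and in miR-669a from 18.9 ± 1.21% to 8.33 ± 0.705%. miR-669a-5p has 12 copies and miR-669a-3p has 11, with counts divisible by these numbers in all 11 libraries. The miR-669a counts may thus hold a read more than once, so these percents cannot be read as arm use of a single hairpin.

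Among called hairpins the largest shifts to 3p were in miR-328, miR-345, miR-132, miR-382, miR-136 and miR-29c. miR-328-5p had 95 counts in batch 1 and 1 in batch 2, beside 3p counts in every library, and miR-328 gave 13.6 to 26.4% of its counts from the 5p arm in batch 1 and at most 0.356% in batch 2. miR-132, whose 3p strand is known from neurons, went from 87.7 ± 2.60% 5p to 59.8 ± 1.68%. Among called hairpins the largest shifts to 5p were in miR-378a, miR-3084, miR-542, miR-146b, miR-340 and miR-34c, and of these miR-378a (79 counts in all), miR-3084 (310) and miR-542 (323) were scarce.

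Of the 7 hairpins whose dominant arm differed, 5 were called. miR-7218 went from 52.9, 46.7, 42.2, 47.0 and 46.8% 5p in batch 1 to 62.7 to 66.2% in batch 2 (log2 arm ratio 1.04 ± 0.10, adjusted p = 7.13e-09). miR-130b went the other way, from 56.3 ± 4.02% to 31.6 ± 3.24%, and miR-28a from 64.1 ± 5.64% to 35.6 ± 9.20%. In miR-468 (42.1 to 52.3%) and miR-7234 (42.8 to 52.4%) the arms were close to equal in both batches. miR-299a and miR-7670, with 127 and 88 counts, were not called. Arms also stayed close to equal in miR-7242 (46.0 and 45.1% 5p), miR-7232 (54.3 and 56.9%), miR-361 (43.8 and 44.99%), miR-466n and miR-664, none of which was called.

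Among the leading hairpins with a 3p majority, miR-465a and miR-465c shifted toward 5p (14.6 to 22.2% and 15.3 to 21.9%), while miR-465b did not pass (10.9 and 11.97%). The 3p strands of these hairpins share 1 sequence, and miR-465b-3p held 1.002 to 1.004 counts for each count of miR-465c-3p. Each 3p count may thus hold reads of the other hairpins, so these 5p percents cannot be read as arm use of single hairpins. miR-741 (1.92 to 1.58% 5p), miR-25 (0.293 to 0.172%) and miR-29a (0.546 to 0.242%) were shifted further toward 3p.

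**Figure D5:**
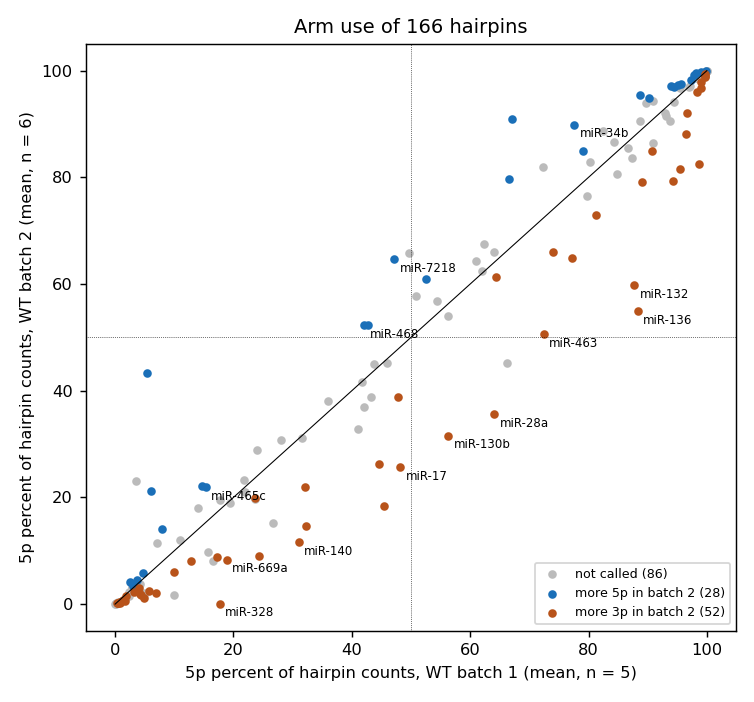
Percent of a hairpin's counts on the 5p arm, batch 1 mean (n = 5) across and batch 2 mean (n = 6) up, for 166 hairpins coloured by the call of their arm ratio, with dotted lines at equal arms. Most hairpins lie near the diagonal, and 52 called hairpins lie to its 3p side against 28 to its 5p side.

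Lists of miRNAs known from single cell types were summed in each library. The germ cell list (miR-34b, miR-34c and miR-449a-5p strands) summed to 175209 to 243086 CPM in batch 1 and 351193 to 391495 CPM in batch 2. Most of this was miR-34c-5p, with means of 151348 and 283689 CPM. Of the 5 members 2 were called higher and 2 lower, beside 26.9% and 29.8% of all tested miRNAs. The blood list of 7 summed to 3633 to 5155 and 2827 to 3662 CPM, of which most was miR-142a-3p, with miR-144-3p, a red cell miRNA, at 0 in every library. But miR-451a, of the same cluster as miR-144-3p, stood at 14.2 to 88.6 CPM in batch 1 and 18.1 to 50.8 CPM in batch 2. The other arm, miR-144-5p, had counts enough to be tested and was not called (log2 -0.36). The list of vessels, smooth muscle and fibroblasts summed to 788 to 1918 and 1317 to 2270 CPM, that of gonadal somatic cells (both miR-202 strands) to 70.2 to 197 and 106 to 182 CPM, and that of neurons, carried by miR-9-5p, to 2649 to 3557 and 3717 to 4350 CPM. The pluripotent and early germ cell list summed to 69.4 to 123 CPM in batch 1 and 46.1 to 71.3 CPM in batch 2, with miR-293-3p and miR-302b-3p at 0, and the liver miRNA miR-122-5p stayed under 1 CPM. The sums hid members that moved apart. Both arms were called in opposite directions in miR-142a (log2 0.34 for 5p and -0.62 for 3p), miR-202 (0.55 and -0.51) and miR-9 (0.43 and -0.58). Calls higher and lower were 1 and 1 of 5 tested blood members, 1 and 1 of 2 gonadal and 1 and 1 of 3 neuron members. They were 1 and 0 of 5 for vessels, smooth muscle and fibroblasts, and 0 and 2 of 2 for the pluripotent list. In these bulk samples fewer cells of a type and less RNA per cell cannot be told apart, and the part of these cells in the batch differences was not tested.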

How the data were processed

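Small RNA libraries of mouse RS were deposited as 1 table of raw read counts per mature miRNA. Per the labels and the published methods, the authors cut adapters from reads with cutadapt 3.4, keeping those of at least 15 bases, aligned them to GRCm38 with Bowtie2 2.4.2 (local mode, up to 100 alignments a read) and counted them by strand over miRBase mature miRNAs with featureCounts (Subread 2.0.1). How reads with several alignments were counted, and whether duplicates were removed by molecular identifiers, was not given in the sources used here.

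The 11 WT libraries were grouped by genotype and batch as labelled. Counts below the filterByExpr minimum were left out, and batch 2 was tested against batch 1 with edgeR 4.0.16 (TMM, quasi-likelihood, Benjamini-Hochberg adjusted p under 0.1) in R 4.3.3. Arm ratios were fitted with arm by batch terms in edgeR. Shares were compared by two-sided exact permutation tests (SciPy 1.17.1) at an adjusted p of 0.05, adjusted within the 6 library measures, 15 families or 15 clusters, 0.00216 being the smallest p possible. The scripts were tested on simulated data. A count of 3 corresponds to 0.926 to 3.44 CPM across libraries, and limits by depth cover counting error only.

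miRNAs named were the 20 with the largest mean share, the 10 largest rises and 10 falls called without overlap at a mean of 10 CPM or more, the 6 largest arm shifts each way, the 8 hairpins with the most equal arms, the 8 leading 3p hairpins, members of the leading 15 families and 15 clusters, and the marker lists. Other members were named after their values were seen. The members and lists were chosen with earlier results of these data known. Alternatives were other scaling (library size, RLE), no filter, DESeq2 1.42.0, limma 3.58.1, a replicate block, each library left out, counts divided by copies, other seed and cluster definitions and, added after seeing the data, counts divided by copies with identical sequences merged, and family placement by name. Sequences were found in RefSeq for 1675 of 1966 names, holding 72.6% of WT counts, and hosts were taken from GENCODE vM21. Strand was used in counting.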

Additional observations from a re-analysis of the deposited data

Results flagged for a closer look

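In 10 of 168 combinations of a measure and a batch, a library stood apart from the rest of its group by Dixon's criterion, where chance at 1 in 20 gives about 8.4. Some libraries stood apart in several combinations, and miR-741-3p was flagged both as a miRNA and as its own family. In batch 2 replicate 6, miR-741-3p (its family has no other member tested) held 0.971% of counts, the lowest of its batch (others 1.06 to 1.10%), and the miR-17/93 family held 1.46%, the highest (others 1.32 to 1.36%). In batch 1 replicate 4 the miR-34b/c cluster held 18.9% (others 20.9 to 21.8%). On the log2(CPM + 1) scale, batch 2 replicate 2 was low for miR-1a-3p at 5.22 (others 7.96 to 9.25) and high for miR-3084-5p at 5.22 (others 3.79 to 4.23), batch 1 replicate 2 was low for miR-101a-3p at 5.34 (others 6.46 to 6.61) and batch 1 replicate 1 was high for miR-16-1-3p at 4.19 (others 3.16 to 3.44). The summed list of vessels, smooth muscle and fibroblasts was low in batch 1 replicate 2 at 788 CPM, and the liver miRNA had 0.895 CPM (1 count) in batch 1 replicate 5 only among that batch.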

How the results depend on the processing

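Over the alternatives run, 143 of the 153 recomputed summary values kept their direction and their side of the threshold. Called miRNAs numbered 203 to 218 with 1 library left out, 218 with RLE factors, 241 without the filter, 227 with DESeq2, 224 with all 4 groups in 1 fit and 221 with counts divided by copies and identical sequences merged, and called arm ratios 69 to 84. The share of the 10 leading miRNAs differed by 0.286 points without miR-16-5p and miR-34c-5p in the totals, and the number of names detected turned to -42.5 at a common depth.

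Replicate numbers were shared between batches, but same-numbered libraries did not deviate together (correlations -0.02 to 0.22, not all over 0.1), so the numbers were not taken as pairs. The replicate block gave 232 called miRNAs (118 higher and 114 lower, 210 of the 217 shared) and 74 arm ratios. Paired over numbers 1 to 5, with 0.0625 the smallest exact p, differences were 4.40, -3.09, 3.76 and -4.55 points for the 10 leading miRNAs, chromosome X, 5p arms and introns, 61.8 names and 1553340 counts, and 0 of the families and 0 of the clusters could pass.

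Small differences turned sign. Without the 2 leading miRNAs in the totals, the miR-30, miR-25/92 and miR-17/93 families differed by 0.268, 0.0415 and 0.227 points and the Mcm7, Mir17hg and miR-7241 with miR-7242 clusters by 0.343, 0.248 and 0.0102. By library size alone, log2 differences were -0.077 for miR-16-5p, -0.15 for miR-7214-5p, -0.14 for miR-25-3p, -0.29 for let-7f-5p, -0.29 for miR-425-5p and -0.25 for miR-92a-3p. Without the filter miR-449a-5p was at 0.0012 and miR-191-5p at 0.060, and miR-191-5p was at 0.0029 with DESeq2 and 0.024 with all groups. With counts so divided and merged the miR-103/107 family was at -0.00579 points, let-7f-5p at -0.0031 and miR-425-5p at -0.012, and with the block in limma the miR-7242 arm ratio was at 0.022. With 1 library left out the ranges were -0.000327 to 0.0355 points for miR-29 and -0.0281 to 0.000116 for Mir17hg, and on the log2 scale -0.10 to 0.025 for miR-191-5p, -0.044 to 0.11 for miR-425-5p, -0.0038 to 0.10 for let-7f-5p, and for arm ratios -0.41 to 0.053 (miR-664), -0.038 to 0.16 (miR-361), -0.091 to 0.73 (miR-466n) and -0.12 to 0.050 (miR-7242). None of these was called under the main settings but miR-16-5p, miR-7214-5p, miR-25-3p and the shares of the 3 families and of Mcm7. The causes were not tested.

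Leaving out 1 library ended few calls: the Mcm7 share (adjusted p 0.0536 to 0.0989 in 9 of 11 cases), the miR-17/93 share without batch 1 replicate 2 (0.0536), miR-741-3p without batch 1 replicate 3 or 5 (0.160 and 0.142), miR-7214-5p without batch 2 replicate 2 (0.151), and the arm ratios of miR-542 and miR-741 without batch 1 replicate 3 (0.122 and 0.114) and miR-382 without batch 2 replicate 5 (0.105). The arm ratio of miR-382 went from -2.25 to -3.44 without batch 1 replicate 4. Depth limits scarce miRNAs, since 3 counts are 0.926 to 3.44 CPM.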

Other observations

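Of the 304 tested miRNAs with a RefSeq sequence, differences between WT batches showed weak relations to sequence. Spearman's rho of the log2 difference across miRNAs was -0.07 with GC content, -0.01 with length and 0.12 with mean level, as a description without a test. Names that begin with A made up 75 of the 304, and 14 of them were called higher and 27 lower, beside 88 and 80 of all 304, while of 156 that begin with U 48 were higher and 35 lower. Of 131 3p strands 41 were higher and 31 lower (median log2 0.12), and of 165 5p strands 46 were higher and 47 lower (median -0.01).

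In the mutant libraries, where knock-out libraries were in batch 1 and knock-in libraries in batch 2 so that genotype and batch cannot be told apart, 215 of the 217 miRNAs called between WT batches were also tested. Their difference had the same sign in 202, and 152 of these were called in the mutants too, while 309 of all 378 miRNAs tested in both had the same sign.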
